A study of Mus musculus with 6 samples.

Results

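The genes described here are 10 components of the circadian clock, Arntl, Npas2, Clock, Nfil3, Dbp, Nr1d1, Nr1d2, Per2, Tef and Cry1, among 53735 features of a count table from mouse bone marrow stromal cells. They were found by gene symbol, each in a single row, and all 10 had enough reads to be tested, as did 13092 features in all. They were picked because Arntl, Npas2 and Dbp were among the largest differences between the groups compared. Their differences between those groups are therefore given as a description, with no test.

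The 3 fed libraries came from cultures that received apoptotic thymocytes, 5000000 per well, and were kept for 24 h in 5% oxygen before the cells that had taken up the dye label were sorted. The 3 control libraries came from cultures that received no thymocytes and were sorted at the same 24 h label. All cells were wild type (labelled wt) mesenchymal stromal cells, sorted from marrow as CD51+ cells without CD45, lineage markers or CD31, expanded in 2% oxygen and used at passage 2 or 3. The strain and age of the mice, the hour of day of the collection, and whether control wells had new medium or 5% oxygen at the time of feeding are not stated in the labels. Nor is it stated whether replicates were separate cultures or mice. The p-values below therefore rest on the spread among these 6 libraries alone, and that spread may be technical.

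The clock of mammalian cells is a loop of transcription and repression that runs through about a day. BMAL1, the product of Arntl, pairs with CLOCK or its relative NPAS2 and binds E-boxes in the genes of its own repressors, the PER and CRY proteins, and in Nr1d1, Nr1d2, Dbp and Tef. The products of Nr1d1 and Nr1d2, the nuclear receptors REV-ERB alpha and beta, repress genes that carry ROR elements, among them Arntl, Npas2, Clock, Cry1 and Nfil3, while ROR receptors activate them. DBP, TEF and HLF, a family of basic leucine zipper activators, and their antagonist NFIL3 act on D-boxes. In cultured cells the loop is reset by serum, glucocorticoids and cyclic AMP. In mice the clock genes also take part in the control of osteoblast proliferation and bone mass.

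Library totals ran between 20034583 and 22410047 counts in fed libraries and between 19069074 and 21949519 in control libraries. Levels below are CPM, the counts of a gene per 1000000 counts of the library, with the total scaled by TMM, which sets libraries to a common level over most genes. All 10 stromal markers had counts, with summed levels of 30857 to 32541 CPM in fed libraries and 34887 to 35935 CPM in control libraries. By edgeR's test 7 of the 10 were called lower in fed cells and 0 higher. Of all genes tested, 19.0% were called lower and 20.5% higher. Of 12 thymocyte markers, 3 were at 0 in every library (Cd3g, Rag2 and Ptcra), and the list summed to 0.644 to 1.45 CPM in fed libraries, against 0.417 to 0.895 CPM in control libraries. Without Lck, which is the marker with the most reads in control libraries, the list had 21, 10 and 21 reads in fed libraries, against 1, 4 and 2 in control libraries. Rag1, Cd8b1, Cd8a and Dntt had more reads in every fed library than in any control library, and these genes were singled out after their values were seen. Other markers of the list went the other way. Lck had 7, 4 and 12 reads in fed libraries, against 8, 11 and 15 in control libraries. Themis had 0, 0 and 1 against 1, 1 and 1, and Cd3d 0, 0 and 0 against 0, 1 and 0. The 7 macrophage and haematopoietic markers summed to 7.40 to 7.66 CPM in fed libraries and 6.94 to 7.48 CPM in control libraries, with Fcgr1 at 0. Csf1r had the most reads of these, 91, 125 and 135 in fed libraries and 120, 120 and 116 in control libraries. Ptprc had 5, 2 and 3 reads in fed libraries, against 0, 1 and 0 in control libraries. Adgre1 had 5, 3 and 3 against 0, 0 and 0, and Itgam 0, 2 and 2 against 0, 0 and 0. These 3 genes were singled out after their values were seen. The 5 endothelial markers summed to 2.67 to 3.30 CPM in fed libraries and 2.83 to 3.49 CPM in control libraries, with Cdh5 and Tie1 at 0. The part of cells other than stromal cells in the results was not tested.

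In fed cells Arntl, Npas2, Nfil3 and Clock were lower, and Dbp, Nr1d1, Nr1d2, Per2 and Tef were higher, with log2 fold changes between -2.09 and 1.07. The groups did not overlap in 9 of the 10 members, the exception being Cry1, and in 49.1% of all genes tested. Since this contrast picked the members, nothing is read from their count. RNA of pooled sorted cells gives a mean over cells, so a lower level in fewer cells and a lower level in each cell cannot be told apart. Fed cells were sorted for uptake of the dye label, and control cultures received no thymocytes. A difference that marked the cells able to take up thymocytes therefore cannot be told apart from a response to feeding. Below, rose and fell mean only higher and lower in fed than in control cells. With a single time point neither the phase nor the amplitude of a rhythm was measured.

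**Figure D1:**
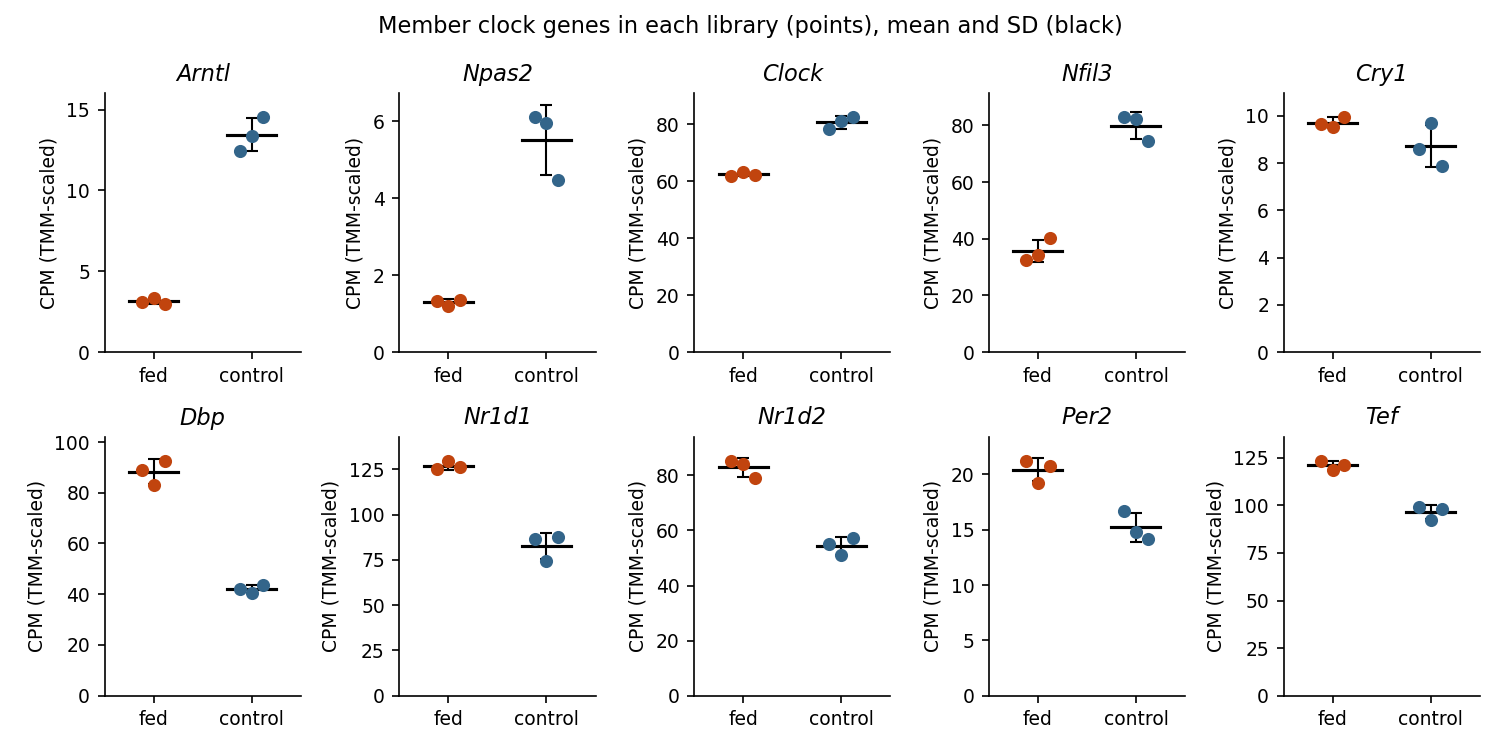
Level of each member clock gene in CPM (y axis, from 0) in the 3 fed and the 3 control libraries (points), with the mean and SD in black. Fed libraries lie below all control libraries for Arntl, Npas2, Clock and Nfil3 and above them for Dbp, Nr1d1, Nr1d2, Per2 and Tef, while the groups overlap for Cry1.

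Promoter windows of 250 bases before to 50 bases after the start of a transcript (RefSeq, GRCm38.p6) were found for 9 of the 10 members, all but Per2. Exact matches were sought on both strands for the E-box CACGTG, for a core ROR element written as TAGGTCA or TGGGTCA, and for a D-box written as TTATGTAA or TTACGTAA, and no matches overlapped. Of 27025 genes with a window, 8.09% held the E-box in at least 1 window, 7.35% the ROR element and 1.23% the D-box. Among the 9 members, 2 held a ROR element (Arntl and Nfil3, both lower in fed cells), 2 held an E-box (Tef and Cry1) and none held a D-box. Npas2 and Clock, also lower in fed cells, held no match in any of their windows. A match is a description and not a site in use, and its absence says only that these letters are not in the window.

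The windows of Arntl and Nfil3 are shown because they hold the ROR element, and those of Tef and Cry1 because they hold the E-box. In each, capitals mark the match, 5′ to 3′ on the strand of the gene. The Arntl window lies at chr7:113207261-113207560 on the plus strand, and its match begins 30 bases after the start of that window's transcript. A further Arntl window, at chr7:113207215-113207514, holds no match and is not printed. The Nfil3 window lies at chr13:52980990-52981289 on the minus strand, with the match read on the opposite strand. The Tef window lies at chr15:81811164-81811463 on the plus strand. A further Tef window, at chr15:81802423-81802722, also holds an E-box and is not printed. The Cry1 window lies at chr10:85185005-85185304 on the minus strand.
Arntl: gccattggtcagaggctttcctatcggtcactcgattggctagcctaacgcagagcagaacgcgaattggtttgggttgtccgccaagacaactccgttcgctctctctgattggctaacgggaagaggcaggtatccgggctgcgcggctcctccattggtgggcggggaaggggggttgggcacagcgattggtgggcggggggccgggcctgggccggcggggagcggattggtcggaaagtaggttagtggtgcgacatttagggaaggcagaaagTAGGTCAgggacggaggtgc
Nfil3: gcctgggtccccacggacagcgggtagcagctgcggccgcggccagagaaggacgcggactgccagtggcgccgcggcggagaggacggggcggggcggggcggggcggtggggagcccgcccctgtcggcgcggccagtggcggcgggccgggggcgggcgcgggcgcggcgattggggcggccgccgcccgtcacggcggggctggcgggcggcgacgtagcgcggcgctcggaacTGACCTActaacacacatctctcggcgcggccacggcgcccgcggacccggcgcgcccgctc
Tef: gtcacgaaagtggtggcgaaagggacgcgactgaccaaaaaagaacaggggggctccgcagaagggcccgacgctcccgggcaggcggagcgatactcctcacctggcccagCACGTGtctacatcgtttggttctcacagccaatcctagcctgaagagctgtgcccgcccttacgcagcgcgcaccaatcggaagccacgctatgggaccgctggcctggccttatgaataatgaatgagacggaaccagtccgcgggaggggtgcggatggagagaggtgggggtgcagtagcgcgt
Cry1: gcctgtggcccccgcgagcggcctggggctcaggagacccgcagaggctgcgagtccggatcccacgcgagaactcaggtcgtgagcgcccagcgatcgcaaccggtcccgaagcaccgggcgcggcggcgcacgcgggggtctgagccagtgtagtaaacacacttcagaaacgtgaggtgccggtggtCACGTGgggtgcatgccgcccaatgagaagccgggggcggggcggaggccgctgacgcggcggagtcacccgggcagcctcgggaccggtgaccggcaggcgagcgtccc

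Among other clock genes, Per1 and Bhlhe41 held 1 E-box each, Ciart 3 and Per3 2 D-boxes in these windows. None of these 4 genes passed the test between fed and control cells.

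The members of the positive arm of the loop, Arntl, Npas2 and Clock, were lower in fed cells. Arntl (chromosome 7, 113207465 to 113314126, GRCm38) encodes BMAL1, a partner of both CLOCK and NPAS2. It had 3.07, 3.36 and 3.00 CPM in fed libraries, against 12.5, 13.4 and 14.5 CPM in control libraries. The fed values lay close together and every control value was far above them. Means were 3.14 ± 0.190 CPM in fed cells and 13.5 ± 1.04 CPM in control cells (SD, n = 3 each), a log2 fold change of -2.09 ± 0.109 (SE). Only 4 of the genes tested, Arntl included, had a fold change this low or lower, which restates why the members were picked.

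Npas2 (chromosome 1, 39193731 to 39363236) was lower by nearly the same factor. It had 1.34, 1.20 and 1.37 CPM in fed libraries, against 6.12, 5.95 and 4.48 CPM in control libraries. Control replicate 3 was the lowest of its group and still stood above all fed libraries. The log2 fold change was -2.09 ± 0.174 (SE). The raw counts behind it were 27, 26 and 31 reads in fed libraries and 132, 126 and 85 in control libraries, the fewest of any member.

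Clock (chromosome 5, 76209868 to 76304792), the other partner of BMAL1, differed far less. It had 62.0, 63.1 and 62.3 CPM in fed libraries, against 78.4, 81.2 and 82.6 CPM in control libraries, a log2 fold change of -0.37 ± 0.041 (SE). The groups did not overlap, since both were tight. Within single libraries, Clock had 45.6 to 52.8 reads for each read of Npas2 in fed cells and 12.8 to 18.4 in control cells, so the 2 partners differed unequally. Arntl2, a paralog of Arntl that is not a member, was tested and did not pass, with 6.47 ± 0.494 CPM in fed cells and 6.16 ± 0.241 CPM in control cells (edgeR adjusted p = 0.642).

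Nfil3 (chromosome 13, 52967209 to 52981073), the repressor at D-boxes, was lower as well. It had 32.7, 34.1 and 40.2 CPM in fed libraries, against 82.9, 82.2 and 74.4 CPM in control libraries. The highest fed library and the lowest control library were both replicate 3, and a wide gap remained between them. The log2 fold change was -1.16 ± 0.070 (SE), lower in size than those of Arntl and Npas2.

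Dbp (chromosome 7, 45705088 to 45710203), the activator at D-boxes and a direct target of BMAL1, was higher in fed cells. It had 89.1, 82.9 and 92.7 CPM in fed libraries, against 41.9, 40.4 and 43.6 CPM in control libraries. Every fed library stood far above every control library. Means were 88.2 ± 4.96 CPM in fed cells and 42.0 ± 1.6 CPM in control cells (SD, n = 3 each), a log2 fold change of 1.07 ± 0.049 (SE). Of the genes tested, 50 had a fold change as high or higher, Dbp included, and this rank too restates the choice of members.

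Tef (chromosome 15, 81802421 to 81826863), of the same family, differed less. It had 124, 119 and 121 CPM in fed libraries, against 99.3, 92.4 and 97.9 CPM in control libraries, a log2 fold change of 0.33 ± 0.040 (SE). Hlf, a further gene of the family and not a member, had few reads, 18, 27 and 26 in fed libraries and 11, 8 and 5 in control libraries. It was higher in fed cells, at 1.09 ± 0.181 CPM against 0.384 ± 0.123 CPM in control cells, a log2 fold change of 1.48 ± 0.326 (edgeR adjusted p = 0.00108). All 3 genes of the family were higher in fed cells, and their antagonist Nfil3 was lower. Of these genes only Hlf was not a member picked with this contrast in view, so nothing is read from their shared direction.

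Both REV-ERB genes were higher in fed cells by like amounts. Nr1d1 (chromosome 11, 98767932 to 98775333) had 125, 130 and 126 CPM in fed libraries, against 86.4, 74.3 and 87.5 CPM in control libraries. Control replicate 2 was low within its group, and fed libraries were close together. Nr1d2 (chromosome 14, 18204054 to 18239127) had 85.4, 84.2 and 79.0 CPM in fed libraries, against 55.2, 50.9 and 57.2 CPM in control libraries. The log2 fold changes were 0.62 ± 0.051 and 0.61 ± 0.048 (SE).

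The ROR receptors compete with REV-ERB for the same elements. Rora fell to 34.0 ± 0.428 CPM in fed cells, against 42.6 ± 1.09 CPM in control cells, a log2 fold change of -0.32 ± 0.049 (edgeR adjusted p = 2.67e-05). Fed libraries held 3.69 to 3.78 reads of Nr1d1 for each read of Rora, and control libraries 1.74 to 2.11. Rorb, with at most 1 read in any library, was not tested.

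Nr1d1 shares 263 bases of exon with Thra, the thyroid hormone receptor gene on the opposite strand, which is 8.55% of its exons in GENCODE M21. The library kit marks strand, but the sources used here do not give the strand setting of the counting, so reads in the overlap cannot be assigned to either gene. Thra fell to 65.8 ± 2.61 CPM in fed cells, against 91.3 ± 2.08 CPM in control cells (log2 fold change -0.47 ± 0.042, edgeR adjusted p = 2.67e-08), in the opposite direction to Nr1d1. Dbp shares 18.0% of its exons with Sphk2 on the opposite strand, which fell to 27.0 ± 1.01 CPM in fed cells, against 31.2 ± 1.25 CPM in control cells (edgeR adjusted p = 0.00674). Both neighbours were named after their values were seen.

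Of the repressors that close the loop, Per2 was higher in fed cells. Per2 (chromosome 1, 91415982 to 91459324) had 21.3, 19.3 and 20.8 CPM in fed libraries, against 16.7, 14.8 and 14.2 CPM in control libraries. All fed values were above all control values, and the log2 fold change was 0.42 ± 0.073 (SE). Cry1 (chromosome 10, 85131700 to 85185064), which carries both an E-box and ROR elements in mice, had 9.66, 9.52 and 9.95 CPM in fed libraries, against 8.62, 9.68 and 7.90 CPM in control libraries. Control replicate 2 lay within the fed range, and the log2 fold change was 0.15 ± 0.095 (SE), the smallest of the members.

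Their paralogs, which are not members, were tested and did not pass. Per1 had 28.4, 29.0 and 30.3 CPM in fed libraries, against 27.5, 27.3 and 30.5 CPM in control libraries, a log2 fold change of 0.04 ± 0.060 (edgeR adjusted p = 0.585). The log2 fold changes of Per3 and Cry2 were 0.09 ± 0.065 (adjusted p = 0.275) and -0.05 ± 0.058 (adjusted p = 0.541). Each read of Per1 was matched by 0.665 to 0.747 reads of Per2 in fed libraries and by 0.465 to 0.607 in control libraries. Among other repressors at E-boxes, Bhlhe40 fell to 135 ± 2.61 CPM in fed cells, against 152 ± 1.26 CPM in control cells (log2 fold change -0.16 ± 0.036, edgeR adjusted p = 0.00114). Neither Bhlhe41 nor Ciart passed, each with a log2 fold change of 0.20, ± 0.120 for Bhlhe41 and ± 0.111 for Ciart (adjusted p = 0.189 and 0.168).

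**Figure D2:**
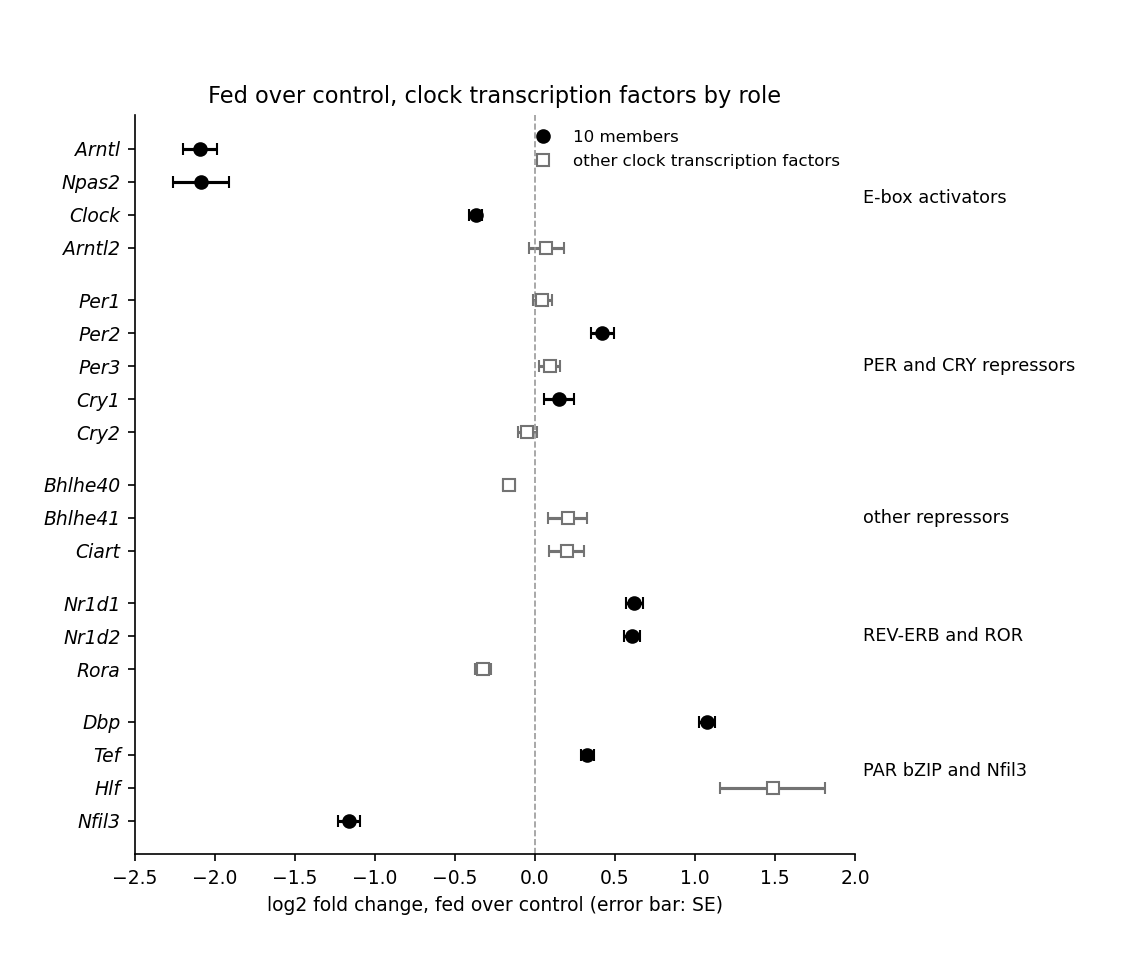
Log2 fold change of fed over control (x axis, error bar SE) for the member clock genes (filled circles) and 9 other clock transcription factors (open squares), grouped by role. Arntl and Npas2 lie near -2.09, Dbp at 1.07 and Hlf at 1.48, while Per1, Per3, Cry2 and Arntl2 lie within 0.1 of 0.

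Ratios of raw counts within a library do not depend on how libraries are scaled. Each of the 3 ratios given here sets a member that was higher in fed cells over a member that was lower. A wider difference than that of either gene follows from this choice of pairs. Each read of Arntl was matched by 29.0, 24.7 and 31.0 reads of Dbp in fed libraries, against 3.36, 3.02 and 3.00 in control libraries. For Nr1d1 over Arntl the ratios were 40.8, 38.7 and 42.2 in fed libraries, against 6.93, 5.56 and 6.02 in control libraries. Dbp over Nfil3, an activator over its antagonist at the same element, was 2.73, 2.43 and 2.31 in fed libraries, against 0.505, 0.492 and 0.586 in control libraries. Dbp had more reads than Nfil3 in every fed library and fewer in every control library. These ratios follow from the members' own values and are given with no test.

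**Figure D3:**
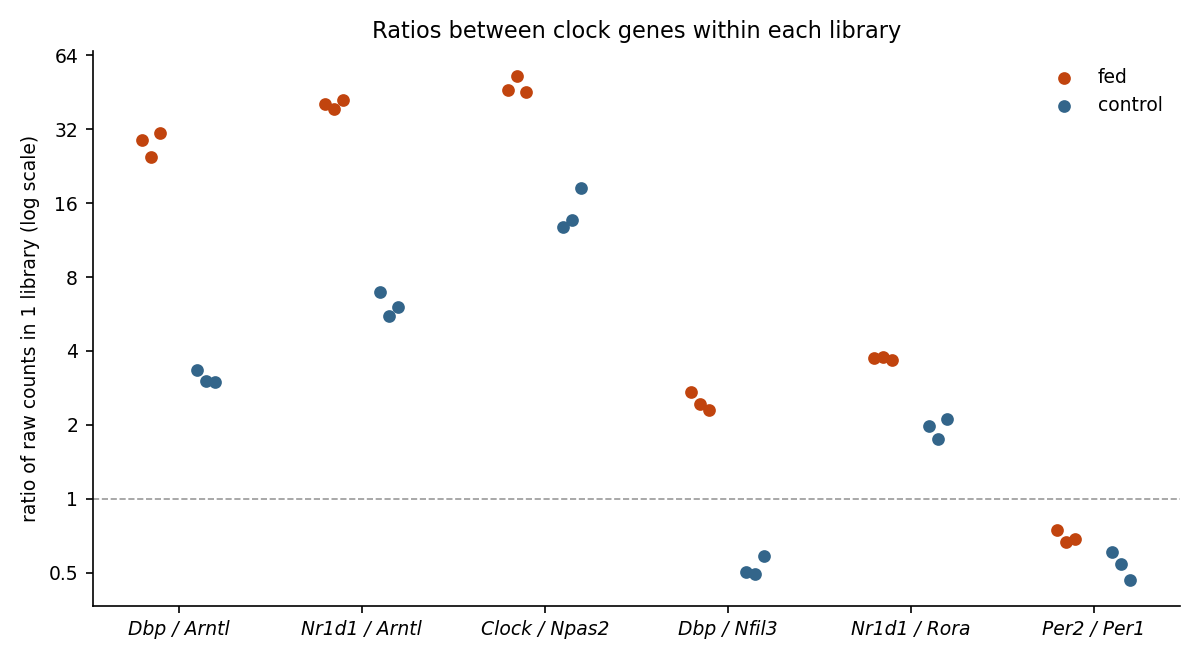
Ratio of raw counts of 2 clock genes within each library (y axis, log scale) for 6 gene pairs, with fed libraries left of control libraries. Dbp over Arntl lies between 24.7 and 31.0 in fed libraries and between 3.00 and 3.36 in control libraries, and Dbp over Nfil3 lies on opposite sides of 1.

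Levels per length of exon also changed their order. In fed cells Nr1d1 stood first with 41.3 ± 0.804 CPM per kb (SD, n = 3), followed by Dbp with 29.5 ± 1.66 and Nfil3 with 17.6 ± 1.97. In control cells Nfil3 stood first with 39.4 ± 2.35 CPM per kb, followed by Nr1d1 with 26.9 ± 2.38 and Dbp with 14 ± 0.533. Tef and Nr1d2, at 15.4 ± 0.302 and 15.3 ± 0.628 CPM per kb, could not be told apart in fed cells, nor could Cry1 and Per2, at 2.61 ± 0.268 and 2.6 ± 0.222 CPM per kb, in control cells. Arntl and Npas2 were the lowest of the members in both groups, with 0.418 ± 0.0253 and 0.271 ± 0.0190 CPM per kb in fed cells, against 1.79 ± 0.138 and 1.15 ± 0.188 in control cells. Exon lengths were taken from GENCODE M21 and may differ from the annotation the authors counted on.

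**Figure D4:**
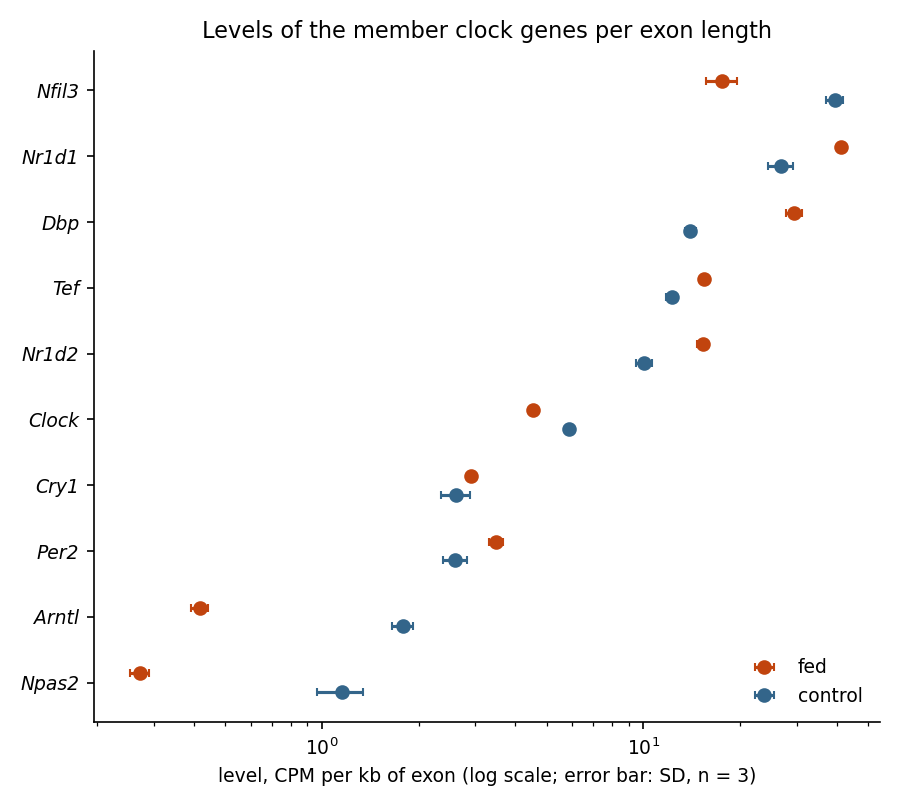
Level of each member clock gene in CPM per kb of exon (x axis, log scale), as mean and SD over the 3 fed and the 3 control libraries. Nfil3 is below Nr1d1 and Dbp in fed cells and above them in control cells, and Arntl and Npas2 are last in both.

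The spread within groups, which the choice of members did not use, was larger than the median of genes of like level in 6 members and smaller in 4. The SD of log2 CPM within groups was 0.0979 for Arntl, where genes within 0.5 of its log2 level had a median of 0.113, and 0.186 for Npas2, against a median of 0.169. Clock varied less than such genes, with 0.0290 against 0.0505. Nfil3 and Nr1d1 varied more, with 0.127 against 0.0538 and 0.0949 against 0.0464, as did Nr1d2, with 0.0740 against 0.0511, and Dbp, with 0.0695 against 0.0518. These SDs rest on 3 libraries a group and are given with no test.

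**Figure D5:**
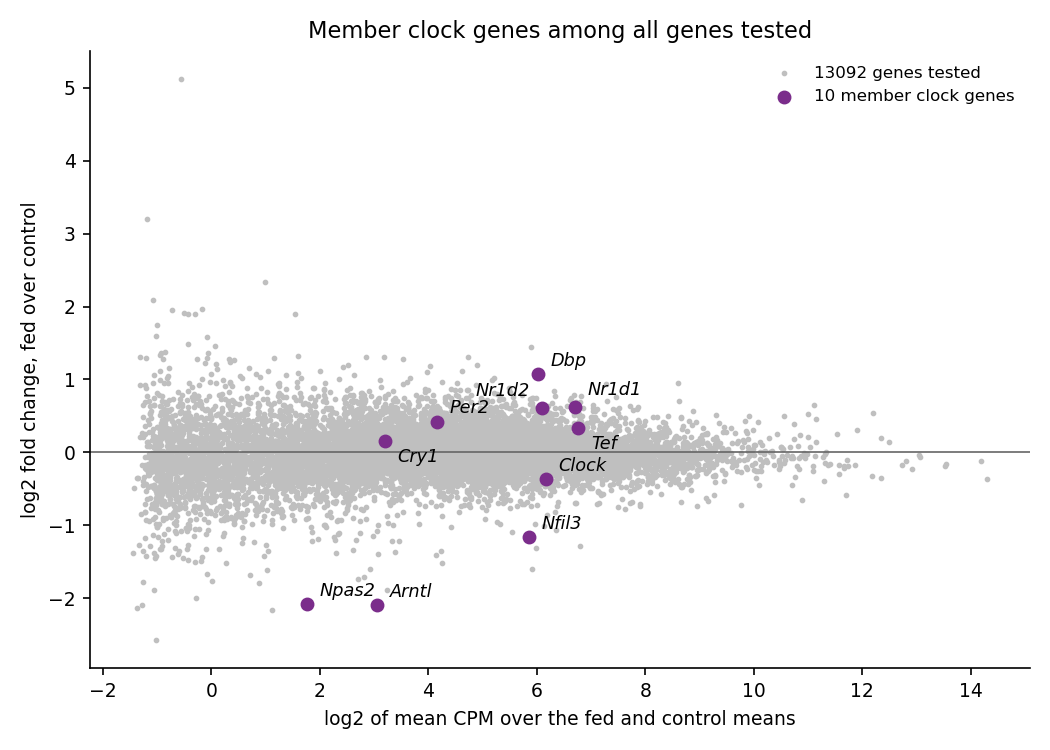
Log2 fold change of fed over control (y axis) against the log2 of the mean CPM (x axis) for the 13092 genes tested (grey) and the member clock genes (purple). Arntl and Npas2 lie at -2.09, Nfil3 at -1.16 and Dbp at 1.07, and Cry1 at 0.15.

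Beyond the members, a list of 40 other clock genes held 39 with enough reads, of which 8 rose, 6 fell and 25 did not pass. Their median log2 fold change was 0.03, against -0.01 over all genes tested, of which 20.5% were called higher and 19.0% lower. The 10 tested transcription factors of this list gave 1 that rose (Hlf) and 2 that fell (Rora and Bhlhe40). The other 7 did not pass. The 29 kinases, ubiquitin ligases and complex partners gave 7 that rose and 4 that fell.

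Of the enzymes that act on clock proteins, Csnk1e, the casein kinase 1 epsilon that phosphorylates PER, rose to 61.6 ± 2.66 CPM in fed cells, against 54.5 ± 0.853 CPM in control cells (log2 fold change 0.18 ± 0.045, edgeR adjusted p = 0.00344). Its close relative Csnk1d did not pass (log2 fold change -0.04 ± 0.036, adjusted p = 0.362). Gsk3b fell by 0.14 ± 0.039 on the log2 scale (adjusted p = 0.00679), a call lost without fed replicate 2 (0.0569) or control replicate 2 (0.0529). Csnk1a1 fell by 0.10 ± 0.036 (adjusted p = 0.0397), a call lost on leaving out each of the 6 libraries in turn (0.0561 to 0.135), with library totals only, with no filter and by DESeq2. Prkaa2, a catalytic subunit of AMP-activated kinase, rose to 2.44 ± 0.206 CPM in fed cells, against 1.33 ± 0.0582 CPM in control cells (log2 fold change 0.88 ± 0.190, adjusted p = 0.000979).

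Partners of the PER and CLOCK complexes gave 5 that rose and 1 that fell of 13 tested, against 20.5% called higher and 19.0% called lower of all genes tested. Tipin rose to 46.3 ± 2.74 CPM in fed cells, against 30.0 ± 2.79 CPM in control cells, and Timeless to 27.7 ± 1.31 CPM, against 22.6 ± 1.05 CPM in control cells (edgeR adjusted p = 3.06e-07 and 0.000810). These 2 proteins also hold the replication fork together. Ezh2 and Wdr5, subunits of histone methyltransferase complexes, rose by 0.55 ± 0.055 and 0.37 ± 0.046 on the log2 scale (adjusted p = 1.1e-07 and 2.37e-06), and Sfpq by 0.15 ± 0.037 (0.00315). Genes of the replication helicase moved with them, since all 6 of Mcm2 to Mcm7, chosen after the data were seen, rose, where 20.5% of all genes tested did, with log2 fold changes of 0.49 to 0.77. The part of cell division in the levels of clock partners was not tested. Ncor1, a corepressor that REV-ERB recruits, fell by 0.19 ± 0.053 (adjusted p = 0.0121), a call lost without fed replicate 2 (0.0652) or fed replicate 3 (0.0583), and its deacetylase gene Hdac3 did not pass (log2 fold change 0.07 ± 0.040, adjusted p = 0.203).

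Of 15 clock outputs tested, genes reported to follow the clock in other mouse tissues, 5 rose, 3 fell and 7 did not pass, with a median log2 fold change of 0.01. Of all genes tested, 20.5% were called higher and 19.0% lower. Wee1, the kinase that delays mitosis and a target of BMAL1 in mouse liver, rose to 58.4 ± 0.951 CPM in fed cells, against 31.8 ± 3.73 CPM in control cells (log2 fold change 0.88 ± 0.063, edgeR adjusted p = 9.71e-09). Noct, a rhythmic phosphatase, rose to 24.4 ± 1.30 CPM, against 18.6 ± 0.757 CPM in control cells, and Por, the electron donor of cytochrome P450 enzymes, rose by 0.42 ± 0.039 on the log2 scale. Tspan4 rose by 0.21 ± 0.041. Leo1, Cdkn1a and Herpud1 fell by 0.39 ± 0.081, 0.22 ± 0.039 and 0.14 ± 0.045, the last a call lost without fed replicate 1 (0.0589), fed replicate 2 (0.0635) or control replicate 3 (0.0908), or with library totals only (0.0646). Tsc22d3 did not pass, with a log2 fold change of 0.09 ± 0.073 (adjusted p = 0.331).

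Genes that respond to signals able to reset the clock of cultured cells were tested as 2 further lists. Of 9 glucocorticoid receptor targets tested, 3 rose, 1 fell and 5 did not pass, where 39.5% of all genes tested were called in either direction. Fkbp5 rose to 45.8 ± 0.878 CPM in fed cells, against 30.8 ± 0.579 CPM in control cells (edgeR adjusted p = 2.02e-08), Sgk1 rose by 0.38 ± 0.045 and Pdk4 by 0.36 ± 0.066 on the log2 scale, and Klf9 fell by 0.22 ± 0.049. Dusp1 did not pass (log2 fold change 0.53 ± 0.221, adjusted p = 0.142), but limma-voom called it higher (0.00267), as did the fit whose estimation was not robust (0.0033). The fit with the replicate number as a block also called Dusp1 higher. Tsc22d3, also counted among the clock outputs, did not pass (log2 fold change 0.09 ± 0.073, edgeR adjusted p = 0.331). Neither did Errfi1 (-0.07 ± 0.038, adjusted p = 0.136) nor Cebpd (-0.01 ± 0.077, adjusted p = 0.937). The receptor gene Nr3c1, counted among the 9, did not pass either (log2 fold change 0.02 ± 0.038, adjusted p = 0.733).

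Of 12 serum and cyclic AMP response genes, 1 rose (Srf), 1 fell (Sik1) and 10 did not pass, where 39.5% of all genes tested were called. Srf, the serum response factor, rose to 83.6 ± 2.03 CPM in fed cells, against 66.6 ± 1.90 CPM in control cells (edgeR adjusted p = 2.47e-06). Fos had 92.9, 55.9 and 53.9 CPM in fed libraries, against 61.5, 28.2 and 25.9 CPM in control libraries, where replicate 1 was the highest of each group and the groups overlapped. Its log2 fold change of 0.79 ± 0.462 did not pass (adjusted p = 0.261). With limma-voom 4 of the list rose, and 5 rose when estimation was not robust. Fos, Egr1 and Ier2 were added under both settings, and also with the replicate number as a block, where 7 rose. No label ties these numbers across groups. How these genes moved with the clock genes was not tested.

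By likeness of pattern, measured as Pearson's r of log2 CPM with a pseudocount of 0.1 over the 6 libraries, the 5 genes closest to Arntl among 470 called genes of sufficient level and change were Bcar3, Rnf144a, Mylip, Tusc5 and Apobr, with r between 0.995 and 0.998. Those closest to Dbp were Lcn2, Ube2c, Cdca2, Id1 and Mlf1, with r between 0.994 and 0.997. All libraries of a group share their treatment, so r mostly reflects the difference between groups. None of these 10 genes is in the lists of clock genes. Bcar3 had 25.9 ± 0.292 CPM in fed cells and 42.8 ± 0.990 CPM in control cells, and Lcn2 had 203 ± 5.92 CPM in fed cells and 106 ± 2.07 CPM in control cells.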

How the data were processed

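Raw counts per gene symbol, as whole numbers with 1 column for each of 6 libraries, were deposited by the authors. The submitters' processing notes name GRCm38, STAR 2.6.0c, Subread 1.6.1 (which holds featureCounts), Trimmomatic 0.36 and MultiQC 1.5. Neither the annotation release nor the strand setting is stated. Names that read as dates (27 features, 0.227% of counts) stayed in the fit and are not named.

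Low genes were removed with filterByExpr of edgeR 4.0.16 (R 4.3.3). After TMM scaling, edgeR's quasi-likelihood test (robust, without a replicate block) compared fed with control libraries, with Benjamini-Hochberg adjustment over all 13092 genes tested and calls at an adjusted p under 0.05. SEs of log2 fold changes were derived from the F statistic. Replicates differed beyond sampling noise and were all kept.

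The 10 members, the gene lists and the tests were chosen with earlier results of these data known. All members and any gene of the lists could be named, and some genes counted in the lists are not reported here. Likeness was sought among called genes averaging 2 CPM or more, with an absolute log2 fold change of at least 0.58, leaving out predicted genes and pseudogenes. Alternatives were RLE, upper quartile and unscaled library totals, other filters, DESeq2 1.42.0, limma-voom (limma 3.58.1), no robust estimation, a replicate block, a threshold of 0.01, a test against a 1.5-fold change and each library left out. Coordinates and exon lengths are from GENCODE M21 (GRCm38).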

Additional observations from a re-analysis of the deposited data

How the results depend on the processing

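The log2 fold changes of all 10 members kept their sign under all 15 alternatives run on them, between -2.15 and -2.04 for Arntl, -2.21 and -2.01 for Npas2, -1.26 and -1.10 for Nfil3, -0.39 and -0.34 for Clock, 1.04 and 1.12 for Dbp, 0.55 and 0.66 for Nr1d1, 0.56 and 0.64 for Nr1d2, 0.38 and 0.49 for Per2, 0.30 and 0.36 for Tef, and 0.09 and 0.23 for Cry1. When the test asked for more than a 1.5-fold change, 88 genes passed (48 higher, 40 lower), among them 1 clock output higher and 0 lower, 0 other clock genes in either direction, 0 glucocorticoid receptor targets in either direction and 0 serum and cyclic AMP response genes in either direction. This was edgeR's glmTreat, stricter by construction. At an unadjusted p under 0.05 it gave 2 other clock genes (Prkaa2 and Hlf), 1 clock output (Wee1) and 0 genes of the other 2 lists. The share of all genes at that unadjusted p was not computed, so nothing is read from these counts. No other tool was run against the 1.5-fold threshold. DESeq2 called 3963 genes. Leaving out each library in turn gave between 4145 and 5088 genes called. The serum and cyclic AMP genes that rose numbered 2 with no filter, 4 by limma-voom, 5 without robust estimation and 7 with the replicate number as a block, which added Fos, Fosb, Egr1, Egr2, Ier2 and Nr4a1. The cause was not tested. Same-numbered libraries of the 2 groups had correlations of their deviations of 0.101, 0.0220 and 0.128, and 5 of 6 libraries correlated best with their own number, a hint from the data. Since 1 pair was under 0.1 and no label ties the numbers, they were not taken to pair the samples. With this block 5848 genes were called. Of 28 genes called in the 4 lists, 24 kept their call in every alternative they were run in, which was 15 for 27 of the 28 and 14 for Hlf, whose reads were too few for the filter of 10 counts in every library. No gene reversed. Unscaled library totals gave 3183 genes higher and 2029 lower, and upper quartile scaling 2495 higher and 2705 lower, against 2682 higher and 2493 lower with TMM.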
